A study of Mus musculus with 20 samples.

Results

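The genes described here encode the lysosome's proton pump, its soluble hydrolases and a small group of its membrane and secreted proteins. The list of 54 genes was drawn up by name from what the proteins do, but with earlier results of these data known. Counts over the list set beside all genes are therefore descriptive. All 54 were present in the deposited table of 14776 genes. They fall into 7 roles, namely 6 subunits of the V0 proton channel, 8 subunits of the V1 part that hydrolyses ATP, 2 accessory proteins of the pump, 11 proteases, 13 hydrolases of sugar chains and their sulfates, 7 lipid hydrolases and activators, and 7 membrane proteins and progranulin. Every gene passed the filter on low values, and the smallest value of any of them in any mouse rested on 17 reads.

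The lysosome is the acidic compartment in which cells break down proteins, glycans and lipids taken up from outside or delivered by autophagy. Its acidity comes from the vacuolar ATPase, in which the V1 part burns ATP on the cytosolic face and turns a ring in the membrane-bound V0 part that carries protons inward. In obese fat, macrophages gather around dying adipocytes and digest their lipid in lysosomes, so the genes of this compartment are well known markers of that tissue state.

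Epididymal white adipose tissue (eWAT) was profiled by RNA-seq of poly(A) RNA in 20 male C57BL/6J mice that were 6 weeks old when the diets began, with each library labelled as a separate sample of its group. The 6 normal control (NC) mice ate a maintenance chow, and the 7 HFD mice ate a diet with 60% of energy from fat for 14 weeks and then received saline by gavage for 6 further weeks on the same diet. The 7 SZ-A mice had the same fat-rich diet throughout and received SZ-A, an alkaloid preparation from mulberry twigs, at 400 mg/kg per day by gavage over those last 6 weeks. All groups were fasted overnight before the tissue was taken, and the sources used here give a saline gavage for HFD but name no gavage for NC. HFD against NC therefore asks how the lysosomal genes differ with 20 weeks of the fat-rich diet, and SZ-A against HFD asks how they differ with the alkaloids on that diet. The 2 comparisons share the HFD mice, and SZ-A against NC shares both of its groups with them.

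The libraries held 13567667 to 19388628 reads on the deposited genes per mouse. The adipocyte hormone Adipoq was at 222 FPKM (fragments corrected for the length of the gene and the size of the library) or more in every mouse but 1. That exception was NC mouse 6, with Adipoq at 26.6 FPKM against 859 to 2278 in the other NC mice, Adgre1, a macrophage surface receptor, at 0.615 FPKM, and Adgrg2, a receptor typical of epididymal ducts, at 420.4 FPKM. The epithelial keratin gene Krt18 was above 100 FPKM in NC mice 1, 2 and 6 and SZ-A mice 2 and 7, and it was at 3.23 FPKM or less in all HFD mice. Among these mice with high Krt18, Adgrg2 was also high in SZ-A mouse 2, at 103 FPKM. It was 5.69, 10.3 and 5.84 FPKM in NC mouse 1, NC mouse 2 and SZ-A mouse 7. SZ-A mouse 5 had 11.6% of its reads on mitochondrial genes, the highest share of the 20 mice. Calls that were lost when a single mouse or the 5 mice with high Krt18 were left out are given as such.

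In HFD eWAT the lysosomal genes were higher as a group than in NC. The level of 41 of the 54 rose past the test (limma adjusted p under 0.05) and none fell, against 21.0% of all genes tested that were higher and 20.1% that were lower. Their median log2 fold change was 1.20, against -0.04 over all genes tested. The study's methods give a stricter threshold, which adds an absolute log2 fold change above 1.5, and it was applied here to the limma fits. At that threshold 22 of the 54 were higher, against 5.43% of all genes. In 32 of the 54 every HFD mouse was above every NC mouse, against 12.7% of all genes. The largest rises were those of Ctsk, Atp6v0d2, Ctss, Lipa and Laptm5, each above 4 on the log2 scale. Without NC mouse 6 the count was 43, and without the 5 mice with high Krt18 it was 45 with a median of 1.46.

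With SZ-A the same list was lower than in HFD. The level of 34 of the 54 fell past the test and none rose, against 13.3% of all genes tested that were lower and 9.47% that were higher. The median log2 fold change was -0.69, against 0.03 over all genes tested. Only Ctsk, Lipa and Atp6v0d2 also passed the study's threshold in the limma fits, against 0.558% of all genes on the lower side. Over all genes tested, 45 were higher and 82 lower at that threshold here. The study's own test called more genes, most of them higher in SZ-A, so these calls do not stand for its list. Its results word the cut as a fold change above 1.5, not a log2 fold change. In 9 of the 54 the SZ-A range lay wholly under the HFD range, against 4.01% of all genes. The count of genes that fell was 40 without SZ-A mouse 5 and 30 without the 5 mice with high Krt18, and it was 26 without HFD mouse 5.

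**Figure D1:**
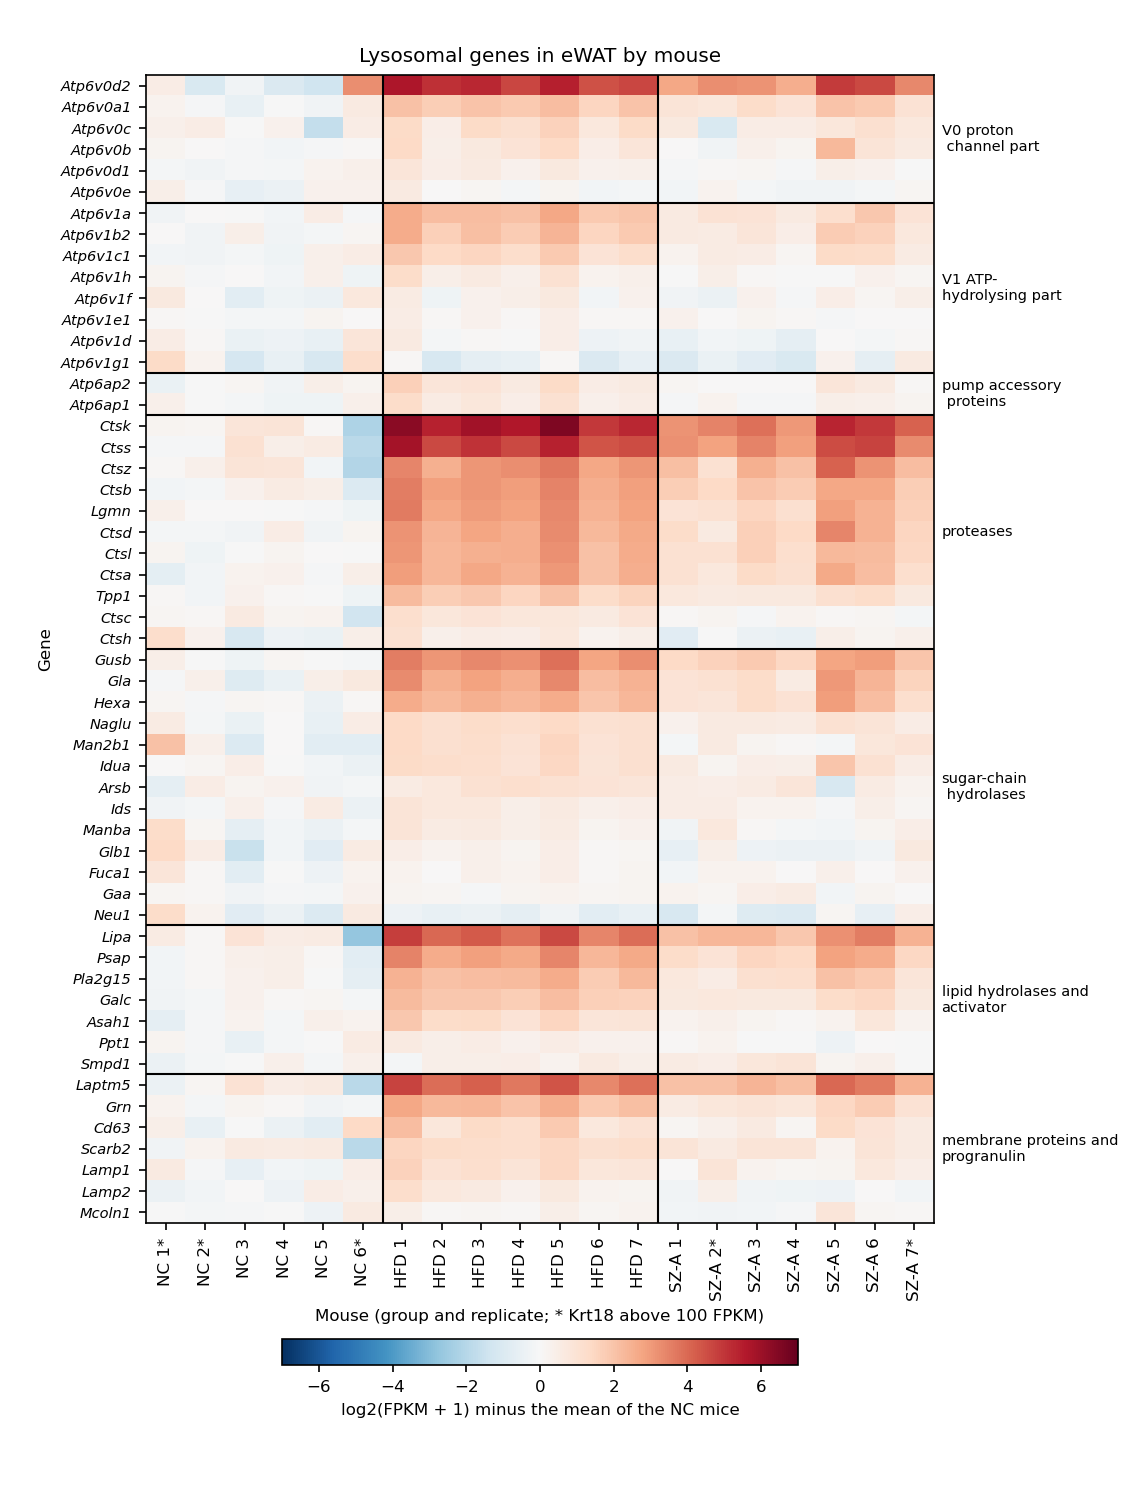
Each row is 1 of the 54 lysosomal genes and each column 1 mouse, and the colour is log2(FPKM + 1) minus the mean of the 6 NC mice (red higher, blue lower), with asterisks on the 5 mice with Krt18 above 100 FPKM. Red fills most HFD columns, is deepest for Ctsk, Atp6v0d2, Ctss, Lipa and Laptm5, and is paler in the SZ-A columns apart from mice 5 and 6.

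The weight of these genes in the whole transcriptome moved with the diet. They took 1.001% to 1.18% of all gene reads among NC mice (median 1.08%), 3.42% to 6.19% among HFD mice (median 4.27%) and 1.75% to 3.98% among SZ-A mice (median 2.17%). The NC range lay below both other ranges, and SZ-A mice 5 and 6, at 3.98% and 3.89%, were the only SZ-A mice inside the HFD range. Macrophage markers moved the same way, counting here and for other lists the genes past the same test. Of 15 such genes 14 were higher in HFD than in NC and 12 fell with SZ-A. Their summed level was 82.8 to 890.3 FPKM among NC mice, 3496 to 9461 among HFD mice and 1457 to 5251 among SZ-A mice. A further 8 genes that mark lipid-associated macrophages, among them Trem2 and Gpnmb, were all higher in HFD, and 6 of them were lower in SZ-A. In bulk tissue, fewer macrophages and less lysosomal RNA per macrophage cannot be told apart, and the part of cell number in these results was not tested.

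The V0 channel of the pump showed its largest difference in 1 subunit. Of its 6 listed subunits 5 rose in HFD and 3 of those fell with SZ-A. Atp6v0d2, an isoform of the d subunit that is characteristic of osteoclasts and some macrophages, ranged over 1.41 to 58.4 FPKM (median 3.20) among NC mice, 139 to 323 FPKM (median 216) among HFD mice and 35.3 to 190.1 FPKM (median 58.6) among SZ-A mice. It rose by 5.04 ± 0.61 on the log2 scale in HFD (limma adjusted p = 2.6e-05) and fell by 1.53 ± 0.35 with SZ-A (limma adjusted p = 0.0075). The highest NC value, 58.4 FPKM, was that of mouse 6, while the other NC mice were at 8.01 FPKM or less, and without that mouse the rise was 5.68. SZ-A mice 5 and 6 lay within the HFD range and the other SZ-A mice below it. With all 3 groups in 1 fit, the limma adjusted p of the fall was 0.071.

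Atp6v0d1, the isoform of the same subunit that most cells use, ranged over 69.6 to 106 FPKM (median 75.1) among NC mice, 99.3 to 150.1 FPKM (median 113) among HFD mice and 75.7 to 107 FPKM (median 87.7) among SZ-A mice. Its changes were small beside those of Atp6v0d2, a rise of 0.51 ± 0.15 in HFD (limma adjusted p = 0.015) and a fall of 0.41 ± 0.13 with SZ-A (limma adjusted p = 0.03), and its groups overlapped in both comparisons. That fall was lost without any 1 of HFD mice 1, 3 and 5 and SZ-A mice 1, 3, 4 and 7 (limma adjusted p up to 0.067), and without the 5 mice with high Krt18 (limma adjusted p = 0.064). Atp6v0a1, which encodes a large membrane subunit that lines the proton path, ranged over 16.3 to 38.1 FPKM (median 22.7) among NC mice, 69.6 to 112 FPKM (median 97.0) among HFD mice and 42.1 to 97.6 FPKM (median 50.03) among SZ-A mice. It rose by 1.90 ± 0.18 in HFD without overlap (limma adjusted p = 3.1e-06) and fell by 0.65 ± 0.19 with SZ-A (limma adjusted p = 0.025), and the fall was lost without HFD mouse 5, SZ-A mouse 1 or SZ-A mouse 4, or without the 5 mice with high Krt18 (limma adjusted p = 0.075). Atp6v0b and Atp6v0c, which encode proteins of the rotating ring, rose by 0.88 and 1.13 in HFD, and their differences with SZ-A, -0.29 and -0.66, did not pass. Atp6v0e, a small subunit, passed in neither comparison (0.08 ± 0.20 and -0.16 ± 0.14). Reads of Atp6v0c could in part come from its 2 annotated pseudogenes, so its level is uncertain.

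The V1 part was uneven. Atp6v1a, Atp6v1b2, Atp6v1c1 and Atp6v1h rose in HFD and fell with SZ-A, and Atp6v1d, Atp6v1e1, Atp6v1f and Atp6v1g1 passed in neither comparison. Atp6v1a, which encodes the subunit that holds the catalytic ATP site, ranged over 15.8 to 27.9 FPKM (median 18.5) among NC mice, 70.3 to 132 FPKM (median 87.8) among HFD mice and 29.9 to 72.4 FPKM (median 38.8) among SZ-A mice. It rose by 2.21 ± 0.17 in HFD (limma adjusted p = 5.0e-07) and fell by 1.17 ± 0.19 with SZ-A (limma adjusted p = 0.0012). All HFD mice were above all NC mice, and SZ-A mouse 6 alone reached into the HFD range. Atp6v1b2, which encodes the partner subunit in the same ATP-binding ring, ranged over 29.0 to 46.0 FPKM (median 33.2) among NC mice, 98.2 to 216 FPKM (median 126) among HFD mice and 47.1 to 119 FPKM (median 59.1) among SZ-A mice. Its rise was 1.99 ± 0.19 (limma adjusted p = 3.3e-06) and its fall 1.04 ± 0.23 (limma adjusted p = 0.0062), again with no overlap between NC and HFD. Atp6v1c1 and Atp6v1h, which encode subunits that couple or regulate V1, rose by 1.43 and 0.62 in HFD and fell by 0.76 and 0.50 with SZ-A. The fall of Atp6v1h was lost without any 1 of HFD mice 1, 3 and 5 and SZ-A mice 1, 3, 4 and 7 (limma adjusted p up to 0.081).

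The 4 V1 subunits that did not pass belong mostly to the stalks of the complex. In HFD against NC their log2 fold changes were 0.06 ± 0.24 for Atp6v1d, 0.23 ± 0.12 for Atp6v1e1, 0.27 ± 0.26 for Atp6v1f and -0.52 ± 0.42 for Atp6v1g1 (SE). In SZ-A against HFD they were -0.30 ± 0.17, -0.14 ± 0.10, -0.19 ± 0.19 and 0.08 ± 0.28 in the same order. Per length of gene, Atp6v1g1 was the most abundant of the 8 V1 subunits in 6 of 6 NC mice, while Atp6v1b2 was the most abundant in 7 of 7 HFD mice. In SZ-A mice Atp6v1g1 led in 4, Atp6v1f in 2 and Atp6v1b2 in 1. Atp6v1g1 ranged from 58.9 to 333.6 FPKM within NC, and its 3 highest NC values were those of mice 1, 2 and 6, which also had high Krt18. Without the 5 mice with high Krt18, Atp6v1f passed in HFD with a rise of 0.75, and Atp6v1h, at 0.57, no longer did (limma adjusted p = 0.070). The value of Atp6v1g1 then changed sign in both comparisons, to 0.40 and -0.13, again without passing.

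Both accessory proteins of the pump moved with the diet and with SZ-A. Atp6ap1, a membrane protein needed to assemble the pump, ranged over 55.6 to 87.9 FPKM (median 64.8) among NC mice, 86.2 to 170.2 FPKM (median 101) among HFD mice and 63.8 to 90.7 FPKM (median 78.3) among SZ-A mice. It rose by 0.72 ± 0.19 in HFD (limma adjusted p = 0.0081) and fell by 0.58 ± 0.16 with SZ-A (limma adjusted p = 0.018), with overlapping groups in both. Atp6ap2, also known as the prorenin receptor, ranged over 28.5 to 52.6 FPKM (median 40.9) among NC mice, 57.2 to 129 FPKM (median 70.6) among HFD mice and 40.6 to 71.1 FPKM (median 42.2) among SZ-A mice. It rose by 0.95 ± 0.21 in HFD with no overlap (limma adjusted p = 0.0025) and fell by 0.69 ± 0.20 with SZ-A (limma adjusted p = 0.021), and the fall was lost without HFD mouse 5 (limma adjusted p = 0.0503) or the 5 mice with high Krt18 (limma adjusted p = 0.058). The SZ-A medians of both lay nearer to the NC medians than to those of HFD.

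**Figure D2:**
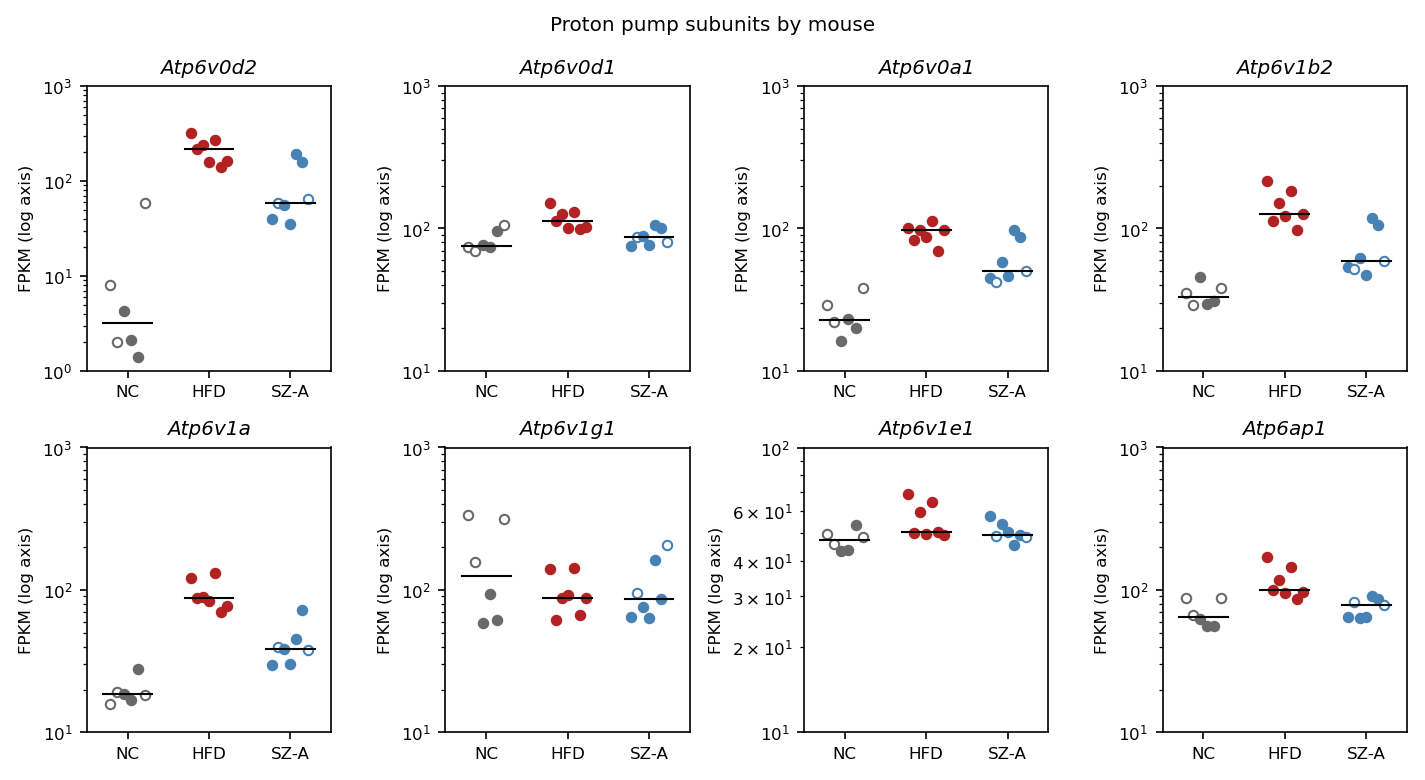
FPKM per mouse on a log axis for 8 genes of the proton pump in NC, HFD and SZ-A (points are mice, lines are medians, open points are the 5 mice with Krt18 above 100 FPKM). Atp6v0d2 had medians of 3.20, 216 and 58.6 FPKM in the 3 groups, whereas the points of Atp6v1e1 and Atp6v1g1 overlap across groups.

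The proteases had the highest median rise of the 7 roles. Of 11 proteases 10 rose in HFD and 9 fell with SZ-A, with median log2 fold changes of 2.72 and -1.05. Ctsk, a cysteine cathepsin that cuts collagen and elastin, ranged over 0.772 to 13.5 FPKM (median 7.78) among NC mice, 241 to 728 FPKM (median 378) among HFD mice and 63.0 to 318 FPKM (median 113) among SZ-A mice. It rose by 5.71 ± 0.44 in HFD (limma adjusted p = 4.5e-07), which was the largest rise of the 54 genes, and fell by 1.72 ± 0.37 with SZ-A (limma adjusted p = 0.0047). The lowest NC value was that of mouse 6, and without it the rise was 5.27. Ctss, a cathepsin of antigen-presenting cells that trims the invariant chain of MHC class II, ranged over 7.98 to 68.0 FPKM (median 36.7) among NC mice, 701 to 1868 FPKM (median 825) among HFD mice and 235 to 859 FPKM (median 332) among SZ-A mice. It rose by 4.93 ± 0.41 (limma adjusted p = 8.1e-07) and fell by 1.36 ± 0.33 with SZ-A (limma adjusted p = 0.01). HFD and NC did not overlap for either gene. The lowest HFD mouse was exceeded by SZ-A mouse 5 for Ctsk and by SZ-A mice 5 and 6 for Ctss. Ctsk and Ctss are neighbours on the same chromosome, at chr3:95499256-95509362 and chr3:95526786-95556403 (GRCm38).

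Lgmn, the asparaginyl endopeptidase that activates other lysosomal proteases, ranged over 43.3 to 69.1 FPKM (median 53.8) among NC mice, 297 to 691 FPKM (median 389) among HFD mice and 106 to 398 FPKM (median 157) among SZ-A mice. It rose by 2.97 ± 0.20 in HFD (limma adjusted p = 1.4e-07) and fell by 1.31 ± 0.30 with SZ-A (limma adjusted p = 0.007). Ctsl, a broadly expressed cysteine cathepsin, ranged over 46.5 to 65.6 FPKM (median 57.8) among NC mice, 246 to 535 FPKM (median 346) among HFD mice and 121 to 287 FPKM (median 158) among SZ-A mice. It rose by 2.61 ± 0.19 (limma adjusted p = 2.8e-07) and fell by 1.05 ± 0.24 (limma adjusted p = 0.0073). For both, NC and HFD were fully apart and the highest SZ-A mouse, mouse 5, lay inside the HFD range, as did SZ-A mouse 6 for Ctsl. Tpp1, which removes tripeptides from the ends of proteins, ranged over 18.0 to 28.1 FPKM (median 22.8) among NC mice, 56.7 to 108 FPKM (median 74.4) among HFD mice and 35.4 to 56.4 FPKM (median 37.0) among SZ-A mice. Its 3 groups did not overlap at all, with a rise of 1.75 ± 0.16 in HFD (limma adjusted p = 2.5e-06) and a fall of 0.91 ± 0.16 with SZ-A (limma adjusted p = 0.0018). Ctsc, which activates serine proteases of mast cells and other leukocytes, ranged over 5.73 to 25.3 FPKM (median 18.1) among NC mice, 25.5 to 37.5 FPKM (median 28.9) among HFD mice and 14.5 to 18.8 FPKM (median 17.1) among SZ-A mice. Its rise of 0.89 ± 0.25 in HFD (limma adjusted p = 0.012) and its fall of 0.82 ± 0.10 with SZ-A (limma adjusted p = 3.0e-04) were of similar size over all mice. SZ-A and NC then differed by 0.07 ± 0.25 (limma adjusted p = 0.91). The lowest NC value was that of mouse 6. Without the 5 mice with high Krt18 the rise was 0.52, the fall 0.80 and the difference between SZ-A and NC -0.28 (limma adjusted p = 0.37). Over all mice, the fall of Ctsc had the smallest adjusted p of the 54 genes and the SZ-A range lay wholly under that of HFD.

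Ctsb, Ctsd, Ctsa and Ctsz, the first a cysteine and the second an aspartic protease of nearly all cells, also passed the study's threshold in HFD, by 3.05, 2.72, 2.57 and 3.10 in that order. Ctsb and Ctsa fell by 1.06 and 1.11 with SZ-A. The differences of Ctsd, -0.96 ± 0.37 (limma adjusted p = 0.071), and Ctsz, -0.64 ± 0.37 (limma adjusted p = 0.22), did not pass. SZ-A mouse 5 had the highest level of both among all 20 mice, 2969 FPKM for Ctsd and 1093 for Ctsz, and both passed without it. Ctsh, an aminopeptidase, did not pass in HFD (0.54 ± 0.30, limma adjusted p = 0.17) and fell by 0.65 ± 0.19 with SZ-A, a call lost without any 1 of HFD mice 1 and 5 and SZ-A mice 1, 3 and 4. Exons of Ctsd and Ctsl share 34.4% and 26.8% of their bases with other annotated genes, and whether reads there were assigned by strand is not given in the sources used here.

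**Figure D3:**
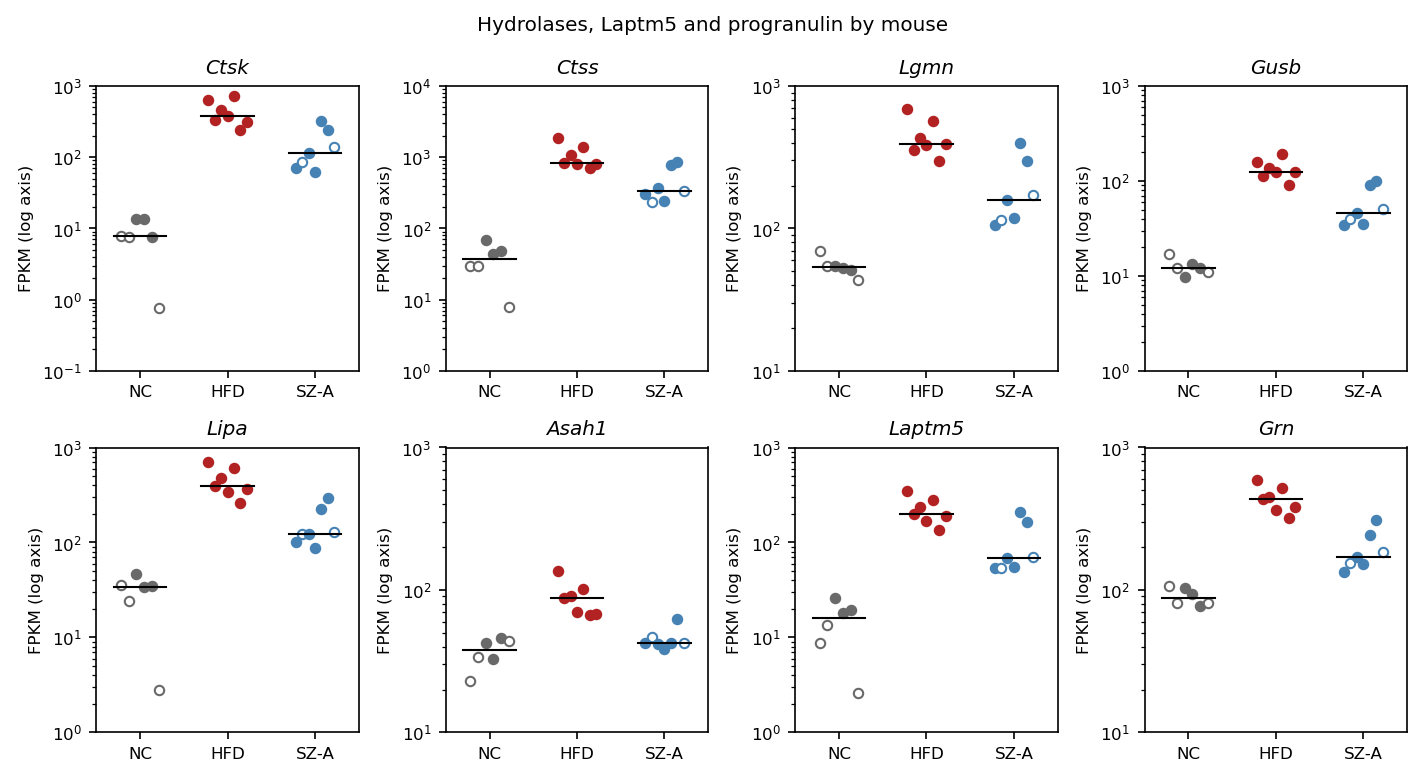
FPKM per mouse on a log axis for Ctsk, Ctss, Lgmn, Gusb, Lipa, Asah1, Laptm5 and Grn in NC, HFD and SZ-A (points are mice, lines are medians, open points are the 5 mice with Krt18 above 100 FPKM). All HFD points are above all NC points in each panel, and SZ-A medians lie between those of the other groups, as for Ctsk at 113 FPKM between 7.78 and 378.

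Among the sugar-chain hydrolases the change was split. Of 13 genes 8 rose in HFD and 5 fell with SZ-A, and 5 passed in neither direction in HFD. Gusb, the β-glucuronidase that degrades glycosaminoglycans, ranged over 9.72 to 16.9 FPKM (median 12.1) among NC mice, 90.6 to 194 FPKM (median 125) among HFD mice and 34.4 to 99.6 FPKM (median 46.4) among SZ-A mice. It rose by 3.30 ± 0.17 in HFD (limma adjusted p = 2.5e-08), the smallest adjusted p of the 54, and fell by 1.32 ± 0.25 with SZ-A (limma adjusted p = 0.0026). Hexa, the α subunit of the β-hexosaminidase that cleaves GM2 ganglioside, ranged over 45.6 to 69.0 FPKM (median 65.9) among NC mice, 239 to 383 FPKM (median 313) among HFD mice and 112 to 467 FPKM (median 139.7) among SZ-A mice. It rose by 2.36 ± 0.16 (limma adjusted p = 1.3e-07) and fell by 0.89 ± 0.29 with SZ-A (limma adjusted p = 0.035), and SZ-A mouse 5 was above all HFD mice. The fall of Hexa was lost on the removal of any 1 of 11 of the 14 mice, the exceptions being HFD mouse 6 and SZ-A mice 5 and 6 (limma adjusted p up to 0.073), and without the 5 mice with high Krt18 (limma adjusted p = 0.104). Naglu, which acts on heparan sulfate, ranged over 12.1 to 26.3 FPKM (median 16.9) among NC mice, 37.9 to 48.4 FPKM (median 40.5) among HFD mice and 22.2 to 37.1 FPKM (median 28.1) among SZ-A mice. It rose by 1.22 ± 0.18 (limma adjusted p = 1.7e-04) and fell by 0.56 ± 0.12 (limma adjusted p = 0.0042), and no SZ-A value reached the HFD range. Gla, the α-galactosidase A of globotriaosylceramide breakdown, passed the study's threshold in HFD at 2.72 and fell by 1.17 with SZ-A, a fall that was lost without HFD mouse 1, HFD mouse 5 or the 5 mice with high Krt18 (limma adjusted p = 0.054 in the last case).

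The smaller rises were those of Man2b1, Idua, Arsb and Ids, between 0.61 and 1.19. Of these Man2b1, an α-mannosidase, also fell with SZ-A, by 0.85 ± 0.18 (limma adjusted p = 0.0044). That fall was lost with all 3 groups in 1 fit (limma adjusted p = 0.099). The rise of Man2b1 was lost without NC mouse 3, NC mouse 5 or HFD mouse 5 (limma adjusted p up to 0.057). The rise of Ids was lost without the 5 mice with high Krt18, at 0.34 (limma adjusted p = 0.12). The 5 that did not pass in HFD were Gaa, the acid α-glucosidase of glycogen breakdown, at 0.14, Glb1, the acid β-galactosidase, at 0.27, Manba at 0.51, Fuca1 at 0.23 and the sialidase Neu1 at -0.48. NC values of Glb1 ranged from 8.24 FPKM in mouse 3 to 71.8 in mouse 1, a wider span than the 27.6 to 36.5 of all HFD mice. Of the 13 genes of the whole list that did not pass in HFD, 11 had their highest NC value in mouse 1 or 6. The same held for 18 of the 41 that passed. A high value in 1 NC mouse itself works against passing, so this contrast is partly built into the split and decides nothing. Both mice had Krt18 above 100 FPKM. NC mouse 2, also above 100 FPKM, had the highest NC value of only 1 gene of the list. Without the 5 mice with high Krt18, Glb1 rose by 1.11, Manba by 0.94, Fuca1 by 0.62 and Gaa by 0.30 in HFD, and the value of Neu1 changed sign to 0.23 without passing (limma adjusted p = 0.22). The part of epididymal or other epithelial RNA in these NC values was not tested.

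The lipid hydrolases moved nearly together. Of 7 genes 6 rose in HFD and the same 6 fell with SZ-A. Lipa, the acid lipase that frees cholesterol and fatty acids from lipid taken into the lysosome, ranged over 2.80 to 47.1 FPKM (median 34.3) among NC mice, 263 to 705 FPKM (median 392) among HFD mice and 88.4 to 292 FPKM (median 123) among SZ-A mice. It rose by 4.14 ± 0.50 in HFD (limma adjusted p = 2.5e-05) and fell by 1.58 ± 0.28 with SZ-A (limma adjusted p = 0.0019). The lowest NC value was that of mouse 6, and without it the rise was 3.60. Galc, which cleaves galactosylceramide, ranged over 1.30 to 2.30 FPKM (median 1.70) among NC mice, 7.46 to 11.5 FPKM (median 8.95) among HFD mice and 3.40 to 6.47 FPKM (median 3.46) among SZ-A mice. It rose by 1.87 ± 0.13 (limma adjusted p = 1.7e-07) and fell by 0.97 ± 0.15 (limma adjusted p = 8.1e-04), with no overlap among the 3 groups. Pla2g15, the lysosomal phospholipase A2, ranged over 7.15 to 15.4 FPKM (median 11.6) among NC mice, 40.7 to 73.1 FPKM (median 55.6) among HFD mice and 16.9 to 49.6 FPKM (median 25.9) among SZ-A mice. It rose by 2.21 ± 0.18 (limma adjusted p = 5.8e-07) and fell by 1.03 ± 0.22 (limma adjusted p = 0.0049).

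Asah1, the acid ceramidase, ranged over 23.0 to 46.2 FPKM (median 37.8) among NC mice, 66.7 to 136 FPKM (median 87.5) among HFD mice and 38.4 to 62.4 FPKM (median 42.2) among SZ-A mice. It rose by 1.24 ± 0.20 in HFD (limma adjusted p = 3.2e-04) and fell by 0.93 ± 0.16 with SZ-A (limma adjusted p = 0.0017) and the SZ-A range lay wholly under that of HFD. Psap, the precursor of the saposins that present sphingolipids to their hydrolases, was the most abundant of the 54 genes in each group by mean FPKM. It rose by 2.85 ± 0.30 in HFD and fell by 1.14 ± 0.34 with SZ-A (limma adjusted p = 0.026). The fall of Psap was lost without any 1 of HFD mice 1 and 5 and SZ-A mice 1, 3 and 4 (limma adjusted p up to 0.058), and without the 5 mice with high Krt18 (limma adjusted p = 0.076). Ppt1, a thioesterase that removes palmitate from proteins, rose by 0.44 and fell by 0.45, and its rise was lost without any 1 of NC mice 2, 3 and 4 and HFD mice 1, 3 and 5 (limma adjusted p up to 0.063). Smpd1, the acid sphingomyelinase, passed in neither comparison, at 0.36 ± 0.15 in HFD (limma adjusted p = 0.078) and 0.10 ± 0.15 with SZ-A (limma adjusted p = 0.64).

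Of the 7 membrane proteins and progranulin, 6 rose in HFD and 5 fell with SZ-A. Laptm5, a membrane protein of leukocyte lysosomes, ranged over 2.61 to 25.9 FPKM (median 15.8) among NC mice, 135 to 349 FPKM (median 198) among HFD mice and 53.6 to 211 FPKM (median 68.0) among SZ-A mice. It rose by 4.02 ± 0.40 in HFD (limma adjusted p = 4.2e-06) and fell by 1.36 ± 0.33 with SZ-A (limma adjusted p = 0.0092). Grn, which encodes progranulin, a secreted protein that is also processed in lysosomes, ranged over 76.6 to 106 FPKM (median 87.4) among NC mice, 318 to 593 FPKM (median 434) among HFD mice and 133 to 310.2 FPKM (median 171) among SZ-A mice. It rose by 2.25 ± 0.17 (limma adjusted p = 4.3e-07) and fell by 1.21 ± 0.20 (limma adjusted p = 0.0012), and its 3 groups were fully apart. Scarb2, which carries glucocerebrosidase to the lysosome, ranged over 4.55 to 30.7 FPKM (median 26.0) among NC mice, 43.3 to 56.4 FPKM (median 45.8) among HFD mice and 23.4 to 37.3 FPKM (median 36.4) among SZ-A mice. It rose by 1.28 ± 0.34 (limma adjusted p = 0.009) and fell by 0.55 ± 0.12 (limma adjusted p = 0.0045), and its lowest value of all was in NC mouse 6. The fall of Scarb2 was lost with all 3 groups in 1 fit (limma adjusted p = 0.19). Lamp1 and Lamp2, the abundant glycoproteins of the lysosomal membrane, rose by 1.11 and 0.57 in HFD and fell by 0.71 and 0.69 with SZ-A. The rise of Lamp2 was lost without any 1 of NC mice 1 to 4 and HFD mice 1, 2, 3 and 5 (limma adjusted p up to 0.086), and without the 5 mice with high Krt18 (limma adjusted p = 0.12). The tetraspanin gene Cd63 rose by 1.30 ± 0.34 in HFD, and its difference with SZ-A was -0.70 ± 0.25 (limma adjusted p = 0.052). Mcoln1, the calcium channel of the lysosome, passed in neither comparison (0.21 ± 0.14 and -0.15 ± 0.15).

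**Figure D4:**
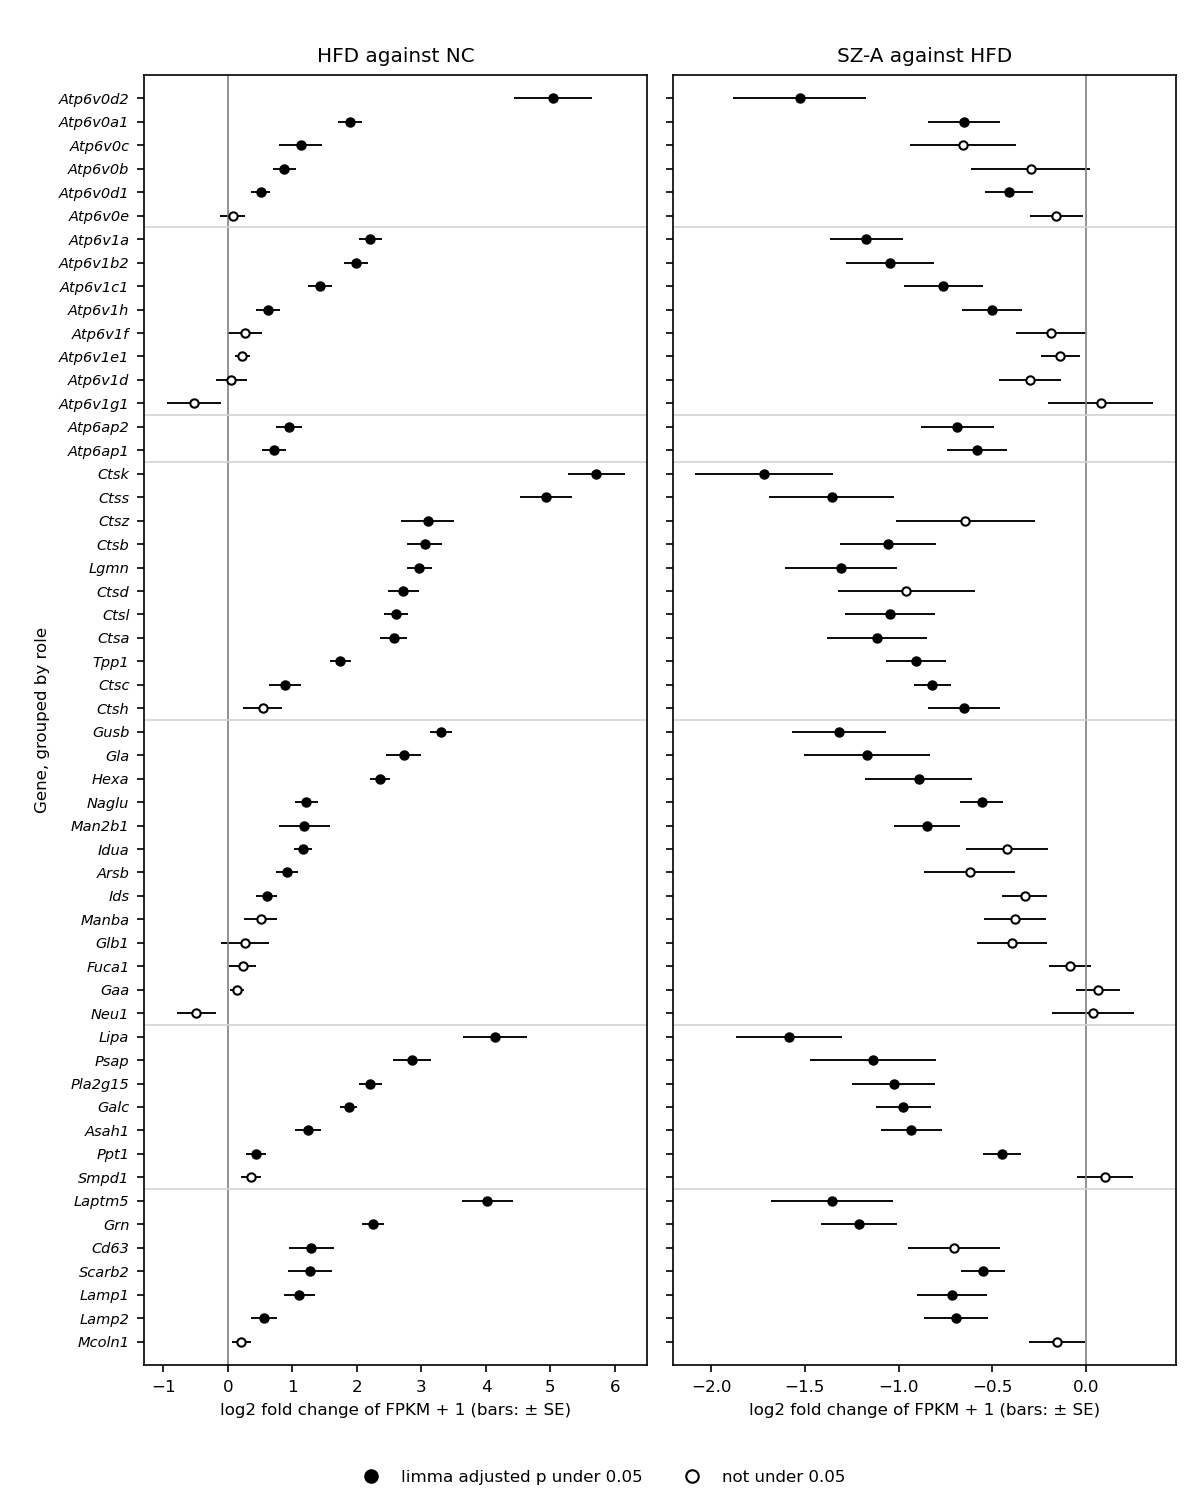
Log2 fold changes of FPKM + 1 for the 54 genes, grouped by role, in HFD against NC (left) and SZ-A against HFD (right), with bars of 1 SE and filled points where the limma adjusted p is under 0.05. The left panel has 41 filled points, all to the right of 0, and the right panel 34, all to the left, and the axes of the panels differ.

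Within pairs of related genes the balance itself changed, as tested on the log2 ratio of FPKM + 1 in each mouse with two-sided exact permutation tests adjusted over 9 comparisons. The ratio of Atp6v0d2 to Atp6v0d1 averaged -3.70 ± 1.59 (SD) among NC mice, 0.82 ± 0.23 among HFD mice and -0.29 ± 0.75 among SZ-A mice. It was 4.53 higher in HFD than in NC (exact permutation, adjusted p = 0.0010) and 1.12 lower in SZ-A than in HFD (exact permutation, adjusted p = 0.0072), so the d isoforms did not move in proportion. The ratio of Ctsk to Ctsl averaged -2.89 ± 1.11 among NC mice, 0.21 ± 0.25 among HFD mice and -0.47 ± 0.42 among SZ-A mice. It was 3.10 higher in HFD than in NC (exact permutation, adjusted p = 0.0010) and 0.67 lower in SZ-A than in HFD (exact permutation, adjusted p = 0.0060). The ratio of Ctss to Ctsl was 2.33 higher in HFD (exact permutation, adjusted p = 0.0010), and its difference of -0.31 between SZ-A and HFD did not pass (exact permutation, adjusted p = 0.064). The smallest unadjusted p that groups of this size allow is 5.8e-04. The members of these pairs had been chosen with their changes known, so the ratios describe their balance and are not independent of the changes above.

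Against NC, the SZ-A mice still had higher levels of part of the list. Of the 54 genes 22 were higher and none was lower, against 4.15% of all genes tested that were higher and 0.455% that were lower, and the median log2 fold change was 0.59 against -0.00 over all genes. By role these were 9 of 11 proteases, 4 of 7 lipid genes, 3 of 13 sugar-chain hydrolases, 2 of 7 membrane proteins and progranulin, 2 of 6 V0 subunits, 2 of 8 V1 subunits and none of the accessory proteins. At the study's threshold 13 were higher, against 1.73% of all genes, and in 20 of the 54 the groups did not overlap, against 3.22%. Ctsk was 3.99 ± 0.50 higher (limma adjusted p = 6.7e-04), Ctss 3.58 ± 0.46 (limma adjusted p = 7.3e-04) and Gusb 1.98 ± 0.26 (limma adjusted p = 8.7e-04). At the other end, Asah1, Atp6ap1, Atp6ap2, Atp6v1c1, Lamp1 and Lamp2, all of which had risen in HFD and fallen with SZ-A, did not pass against NC, at 0.31, 0.14, 0.26, 0.67, 0.39 and -0.13 in that order. Without the 5 mice with high Krt18, of which 3 were NC and 2 SZ-A, 7 of the 22 remained. The median of the list was then 0.75, and the genes higher over the whole table went from 611 to 130. That fit has fewer mice in both groups, which by itself lowers the number of calls. Leaving out single mice, the higher levels of Atp6v1b2 were lost without any 1 of NC mice 1, 2, 4 and 5 and SZ-A mice 3 and 6, those of Gla without any 1 of NC mice 1 to 4 and SZ-A mice 3, 6 and 7, and those of Ctsd without NC mouse 2.

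Within groups, a few mice set the ends of many ranges. HFD mouse 1 had the highest HFD value of 31 of the 54 genes and mouse 5 that of 21, while mouse 6 had the lowest of 40. Among SZ-A mice, mouse 5 had the highest value of 27 genes and mouse 6 that of 10. Macrophage markers were ordered in a like way, since their mean log2(FPKM + 1) was highest in HFD mouse 1, at 7.12, and lowest in HFD mouse 6, at 6.31, and was 6.40 in SZ-A mouse 5 against a median of 5.22 over SZ-A mice. Adipocyte markers ran the other way, with a mean of 6.07 in HFD mouse 1, the lowest of HFD, and 8.16 in HFD mouse 6, the highest. Their mean was 7.73 in SZ-A mouse 5 against a median of 8.15 over SZ-A mice. The mean log2(FPKM + 1) of the 54 genes minus that of the macrophage markers was -0.21 ± 0.07 (SD) over HFD mice, 0.30 ± 0.24 over SZ-A mice and 1.12 ± 0.92 over NC mice.

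**Figure D5:**
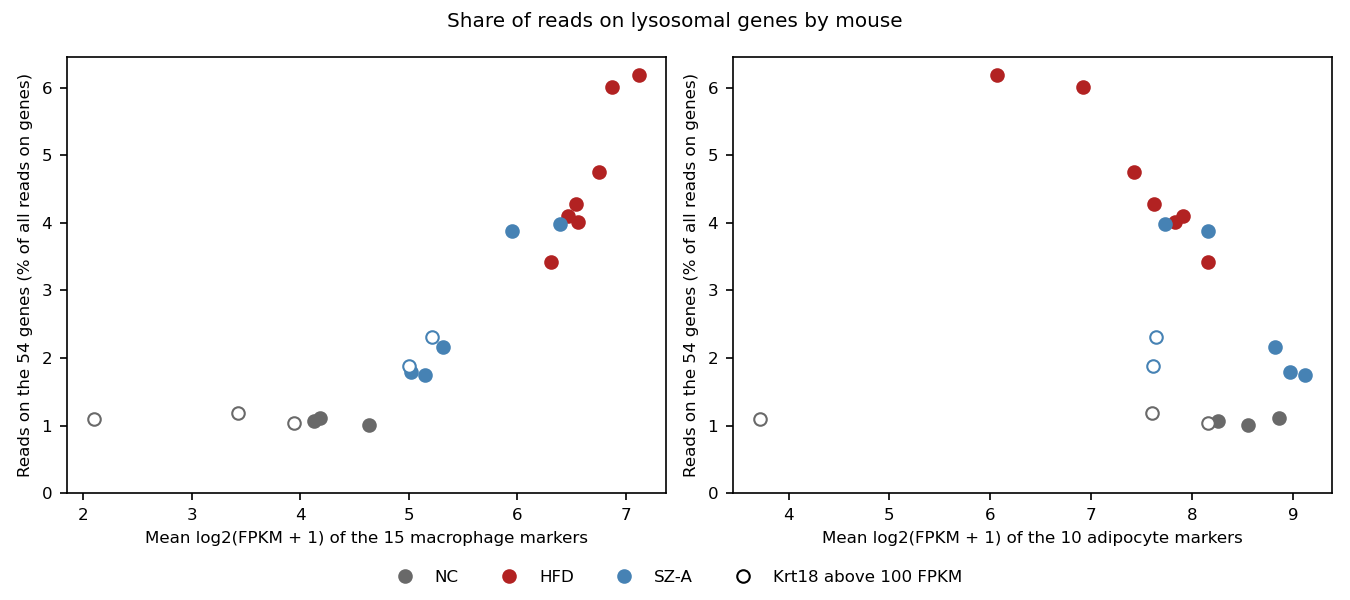
Share of all gene reads that fell on the 54 genes (vertical axis, percent) against the mean log2(FPKM + 1) of 15 macrophage markers (left) and 10 adipocyte markers (right), with 1 point per mouse and open points for the 5 mice with Krt18 above 100 FPKM. NC mice lie at 1.001% to 1.18% whatever their marker level, and the 2 SZ-A mice near 4% are mice 5 and 6.

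Other cell type lists moved as well. Of 10 adipocyte markers Lep was higher and Retn lower in HFD than in NC, and Retn was higher in SZ-A than in HFD. Of 8 progenitor and fibroblast markers 6 were higher and 1 lower in HFD, and 7 were lower in SZ-A. Of 5 measured mast cell markers 4 were higher in HFD and 4 lower in SZ-A. Of 6 smooth muscle markers 4 were lower in HFD and 1 was higher in SZ-A. Of 9 listed mesothelial and epithelial markers 4 were measured, and 3 of these were lower in HFD. Of 13 listed epididymis markers 3 were measured, of which 2 were lower in HFD and 2 higher in SZ-A. The deposited values cover only genes above 0 in every mouse, so markers absent from any mouse are missing from these counts. Dendritic cell (4 measured), endothelial (6), T cell (7), B cell (3) and neutrophil (1) lists had at most 1 gene past the test in either comparison. Their part in the lysosomal results was not tested.

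The promoters of some of these genes carry the sequence that a known family of lysosomal regulators recognises. TFEB and its relatives TFE3 and MITF bind a palindrome with the core CACGTG, often flanked as GTCACGTG, in the promoters of lysosomal genes. RefSeq promoter windows of 300 bases, from 250 before the annotated start to 50 after it (GRCm38.p6), were matched for 46 of the 54 genes by symbol. CACGTG, which reads the same on both strands, lay in 14 of the 46 (30.4%), against 8.09% of all genes with a window and 11.5% of those in the table. GTCACGTG or its reverse CACGTGAC, called the longer form here, each contain the core and lay in 10 of the 46 (21.7%), against 2.55% and 4.67%. The full palindrome, with the core flanked in this way on both sides, lay in 0 of the 46, against 0.370% and 0.763%. That form is so rare among all genes that its absence from 46 decides nothing. The 6 stretches below are examples of the longer form upstream of the start. They come from 4 genes that rose in HFD and fell or did not pass with SZ-A (Lamp1, Ctsd, Lgmn and Naglu) and from 2 that passed in neither comparison (Mcoln1 and Glb1). Ctsa, Atp6v0b, Atp6v0d1 and Gla also held the longer form and are not shown. Capitals mark the motif, and each is written 5′ to 3′ on the strand of its gene.
Lamp1 (chr8:13159075-13159160, plus strand, 86 to 1 bases before the start): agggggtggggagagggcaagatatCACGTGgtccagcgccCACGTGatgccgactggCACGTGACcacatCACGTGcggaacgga
Ctsd (chr7:142387893-142387950, minus strand, 123 to 66 bases before the start): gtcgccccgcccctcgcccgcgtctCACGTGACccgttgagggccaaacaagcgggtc
Lgmn (chr12:102439111-102439168, minus strand, 76 to 19 bases before the more downstream of its 2 annotated starts): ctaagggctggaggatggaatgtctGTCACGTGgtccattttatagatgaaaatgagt
Naglu (chr11:101069994-101070051, plus strand, 100 to 43 bases before the start): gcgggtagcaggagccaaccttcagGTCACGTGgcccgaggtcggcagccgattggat
Mcoln1 (chr8:3500421-3500506, plus strand, 98 to 13 bases before the start): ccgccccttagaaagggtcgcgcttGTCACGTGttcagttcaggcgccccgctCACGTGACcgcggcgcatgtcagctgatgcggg
Glb1 (chr9:114401003-114401060, plus strand, 75 to 18 bases before the start): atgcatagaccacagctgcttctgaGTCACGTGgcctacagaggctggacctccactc

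Genes with and without the motif had similar medians in both comparisons. The 10 with GTCACGTG or its reverse had a median log2 fold change of 1.16 in HFD against NC, with 8 past the test, and the other 36 a median of 1.18, with 27 past it. In SZ-A against HFD the medians were -0.64 and -0.67, with 6 of 10 and 21 of 36 past the test. The windows of Ctsk, Ctss, Lipa, Laptm5 and Gusb, which had some of the largest rises, held no CACGTG, which says only that these letters are not in these windows. Ctsd held 2 copies of the longer form, 245 and 98 bases before its start, and Lamp1 held 4 copies of the core within 61 bases of its start. Atp6v0d2, Atp6v1b2, Atp6v1c1, Atp6v1g1, Atp6v1h, Ctsb, Ctsh and Asah1 were not matched to a window.

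The regulators themselves were also higher in HFD. Tfeb was at 2.70 ± 0.384 FPKM (mean ± SD) among NC mice, 8.52 ± 1.87 among HFD mice and 6.58 ± 3.92 among SZ-A mice, a rise of 1.35 ± 0.13 in HFD (limma adjusted p = 4.0e-06) and a difference of -0.45 ± 0.25 with SZ-A that did not pass (limma adjusted p = 0.2). Tfe3 rose by 0.89 ± 0.19 in HFD (limma adjusted p = 0.0023) and fell by 0.60 ± 0.11 with SZ-A (limma adjusted p = 0.0026). Mitf rose by 1.73 ± 0.28 in HFD (limma adjusted p = 2.8e-04) and fell by 0.86 ± 0.20 with SZ-A (limma adjusted p = 0.0082). Of the 15 genes of this family and its listed regulators, 11 were higher in HFD and 6 lower in SZ-A.

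Beyond the 54 genes, 90 further genes of the lysosome and its regulation were listed, of which 82 were measured. These include the 15 genes of the TFEB family and its regulators given above. In HFD 48 of the 82 were higher and 4 lower, against 21.0% and 20.1% of all genes tested. In SZ-A against HFD 35 were lower and 3 higher, against 13.3% and 9.47% of all genes. The medians were 0.73 and -0.40. The largest rises were those of Cd68, a glycoprotein of macrophage lysosomes, at 5.05 ± 0.26, of Slc15a3, a transporter of histidine and peptides, at 4.10 ± 0.18, and of Slc11a1, the metal transporter of phagosomes, at 4.0 ± 0.39. Cd68 and Slc15a3 also had the largest falls with SZ-A, by 1.64 ± 0.32 (limma adjusted p = 0.0029) and 1.499 ± 0.31 (limma adjusted p = 0.004). Atp6v0e2, an alternative form of the small V0 subunit, went the other way from most pump genes. It was at 29.2 ± 6.54 FPKM (mean ± SD) among NC mice, 8.20 ± 3.89 among HFD mice and 24.4 ± 10.7 among SZ-A mice, a fall of 1.81 ± 0.30 in HFD (limma adjusted p = 3.4e-04) and a rise of 1.44 ± 0.37 with SZ-A (limma adjusted p = 0.012).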

How the data were processed

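Poly(A) RNA of eWAT was sequenced as 150-base read pairs. The reads were mapped by the authors with HISAT2 (GRCm38) and, per the labels, counted with featureCounts 1.5.0-p3. The deposited values are FPKM, in which fragments are divided by gene length and by library size, for 14776 genes that are all above 0 in every mouse. No raw counts were used here. FPKM corrects for gene length and library size but lets abundant genes lower the values of the rest. Whole reads were recovered by multiplying FPKM by exon length in GENCODE M21 (the step between values gives the library size), and 95.9% to 96.3% of values under 1000 reads came within 0.01 of a whole number. Recovered depth was 13567667 to 19388628 reads per mouse, and depth bounds counting error only.

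The study's methods name a test for counts, which FPKM does not allow, so the main test was limma 3.58.1 (R 4.3.3) with a mean trend on log2(FPKM + 1) and no covariate, fitted to the 2 groups compared, over genes averaging 0.1 FPKM or more, with Benjamini-Hochberg adjustment over all of them. Fold changes are on that scale and understate changes of low genes. Ratios were tested by exact permutation with SciPy 1.17.1. The fits were tested on simulated data. A voom fit on the recovered reads made the same 41, 34 and 22 calls among the 54 genes, with 3048 genes higher and 2823 lower in HFD against NC over the whole table. Other pseudocounts, filters, scalings, a robust fit, all 3 groups in 1 fit, a replicate block and each mouse left out were also tried.

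Groups and replicate numbers came from the labels. Each library was taken as 1 mouse, since the study gives its sequencing groups as numbers of mice. The study gives 7 per group, whereas the labels hold 6 NC libraries. The members and lists were chosen with earlier results of these data known. Full values are given for the 2 genes with the smallest adjusted p in each role and comparison, for the genes of the 3 ratios and, more briefly, for genes past the study's threshold or not past the test. Exons of 16 of the 54 genes overlap another annotated gene.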

Additional observations from a re-analysis of the deposited data

Results flagged for a closer look

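A single mouse stood far from the rest of its group, by Dixon's test at the 95% level, in 13 of the 162 combinations of gene and group examined. Chance alone gives about 1 in 20 for normally distributed values. The test was run on FPKM and not on its logarithm, so that rate is only a rough guide here. In each of the 13 the distant value was the highest of its group, a side that the FPKM scale favours. Low values were not examined on the log scale. Among NC mice these were Atp6v0d2 at 58.4 FPKM, Cd63 at 207 FPKM and Mcoln1 at 10.3 FPKM in mouse 6, Man2b1 at 129.8 FPKM and Manba at 15.3 FPKM in mouse 1, and Atp6v1a at 27.9 FPKM in mouse 5. Among HFD mice it was Atp6v0e at 107.6 FPKM in mouse 1. Among SZ-A mice these were Atp6v0b at 218 FPKM, Ctsd at 2969 FPKM, Idua at 23.6 FPKM and Mcoln1 at 12.3 FPKM in mouse 5, and Atp6v1a at 72.4 FPKM and Asah1 at 62.4 FPKM in mouse 6. NC mouse 6 and SZ-A mouse 5 together gave 7 of the 13. Without NC mouse 6, Mcoln1 passed the test in HFD against NC with a log2 fold change of 0.34 (limma adjusted p = 0.017), and the call on Cd63 was kept. Without NC mouse 1, Manba passed in HFD against NC. Without SZ-A mouse 5, Ctsd, Idua and Mcoln1 fell past the test in SZ-A against HFD, and Atp6v0b still did not pass.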

How the results depend on the processing

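None of the 54 genes changed direction under any alternative in a comparison in which it passed the test. In HFD against NC, 37 to 41 of the 41 rises of the listed genes were kept under each alternative, and the median of 1.20 moved to 1.46 only without the 5 mice with Krt18 above 100 FPKM, an alternative chosen after seeing the data. In SZ-A against HFD, 26 to 34 of the 34 falls were kept. The fewest were kept without HFD mouse 5. With all 3 groups in 1 fit 30 were kept, and the falls of Atp6v0d2, Ctsh, Man2b1 and Scarb2 no longer passed. SZ-A against NC was the least stable comparison in its calls, since 7 of the 22 higher genes were kept without the 5 mice with high Krt18. That fit has fewer mice in both groups, and the median log2 fold change of the list in it went from 0.59 to 0.75. Of the other lysosomal genes, the 4 that were lower in HFD became 7 without NC mouse 3 (4 to 7 over all mice left out), and the 3 that were higher in SZ-A than in HFD became 5 without SZ-A mouse 5 (2 to 5). The 20 that were higher in SZ-A than in NC became 3 without the 5 mice with high Krt18 and 13 without NC mouse 1, NC mouse 2 or SZ-A mouse 6 (13 to 20), and the count of lower ones went from 0 to 1 with quantile normalization, with all 3 groups in 1 fit, or without NC mouse 6 or SZ-A mouse 2. The difference in the ratio of Ctss to Ctsl between SZ-A and HFD passed without HFD mouse 4, HFD mouse 7, SZ-A mouse 5 or SZ-A mouse 6, at -0.36, -0.36, -0.35 and -0.39, and over all mice left out it was between -0.39 and -0.24. The causes were not tested.

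The log2 fold changes that did change sign had not passed the test. In HFD against NC these were, over single mice left out, Atp6v0e (-0.040 to 0.16), Atp6v1d (-0.047 to 0.22) and Glb1 (-0.048 to 0.55), with quantile normalization Atp6v0e (-0.024) and Atp6v1d (-0.014), and without the 5 mice with high Krt18 Atp6v1g1 (0.40) and Neu1 (0.23). In SZ-A against HFD they were Atp6v1g1 (-0.10 to 0.18) and Neu1 (-0.11 to 0.15) over single mice, and -0.13 and -0.20 without the 5 mice. In SZ-A against NC they were, over single mice, Atp6v0e (-0.20 to 0.0016), Atp6v1f (-0.070 to 0.23), Ctsc (-0.20 to 0.20), Ctsh (-0.33 to 0.13), Glb1 (-0.44 to 0.15), Fuca1 (-0.0067 to 0.32), Ppt1 (-0.11 to 0.11) and Mcoln1 (-0.074 to 0.18), and without the 5 mice Atp6v0e (0.024), Atp6v1d (0.14), Atp6v1g1 (0.27), Ctsc (-0.28), Ctsh (0.42), Glb1 (0.44), Ids (-0.0080), Neu1 (0.031) and Ppt1 (0.16).

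Replicate numbers shared by the groups did not pair the mice, because the correlation of same-numbered mice was over 0.1 in 2 of 6, 3 of 7 and 2 of 6 pairs. With the replicate block, 37 of the 41 rises in HFD and 28 of the 34 falls with SZ-A were kept, and against NC 7 of 22 listed genes and 4 of the other lysosomal genes were higher in SZ-A.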
